A study of Homo sapiens with 9 samples.

Results

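Zinc finger genes with ZNF or ZFP symbols formed 39 of the 1348 protein-coding genes in which RNA editing sites of a GPATCH8 or SUGP1 fusion protein were listed in 293T cells. Members were chosen by name alone, as protein-coding entries whose symbol is ZNF followed by digits and at most 1 letter, or ZFP followed by digits. They accounted for 18 of 498 protein-coding genes listed for GPATCH8-ADAR and 25 of 995 listed for ADAR-SUGP1, and 4 genes were on both lists. At the level of transcripts these were 21 and 31 entries, whose counts summed to 24 and 36 editing sites. A site entered under several transcripts of a gene would count more than once. Among the members this can concern only ZNF346 with ADAR-SUGP1, and the total of 36 and the shares drawn from it include its full count.

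The cells were 293T, a human embryonic kidney line that is easily transfected. GPATCH8 and SUGP1, G-patch proteins linked to branchpoint recognition by the splicing factor SF3B1, were each joined to the catalytic part of a hyperactive adenosine deaminase from Drosophila, ADAR, which leaves inosines near the RNA that its partner contacts. Cells carried wild-type SF3B1 per the sample descriptions and, in the transfected groups, were sorted as live, GFP-positive cells 24 hours after transfection. The 9 libraries were 2 of GPATCH8-ADAR and 2 of a non-targeting control fusion in sequencing run 1, and 2 of ADAR-SUGP1, 2 of a control fusion and 1 of untransfected cells in run 2. The sample descriptions write the second fusion as SUGP1-ADAR. Expression was transient and from plasmids, so the fusion was present beside the cells' own protein. The labels give a range of about 60 to 80M paired-end reads of 100 bp for every library alike, and the depth at each site is unknown. The lists hold 1 merged count per transcript and fusion, made of sites found in both replicates and absent from controls, so no value per library and no control value can be given. Each fusion had its own run, and the effect of fusion and that of run cannot be told apart. Whether the replicates came from separate cultures is not stated. Markers of the cell line could not be checked, since a list of editing sites carries no expression levels.

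Most ZNF genes encode proteins with tandem C2H2 fingers, loops held by a zinc ion of which each reads a few bases of DNA. The largest class adds a KRAB domain, which binds the scaffold TRIM28 and through it the histone methyltransferase SETDB1 and HP1 proteins, and is known for silencing transposable elements. These genes arose by tandem duplication, lie in clusters on the chromosomes, and are close relatives in sequence. Other ZNF proteins do not repress DNA at all and bind RNA or ribosomes. Reads from near-identical relatives can be exchanged between genes, so values of single members such as ZNF286B (a copy of ZNF286A), ZNF587B (of ZNF587) and ZNF717, which has closely related sequence elsewhere in the genome, are uncertain. No sequence of a site could be shown, because the lists carry no positions.

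With GPATCH8-ADAR, the zinc finger sites divided between the 3′ UTR and introns, with 12 and 11 of 24 sites, and the remaining site was in a 5′ UTR. Coding sequence had none, against 2.32% of all protein-coding sites with this fusion. Of the 18 genes, 13 carried a single site and 5 carried several (27.8%, against 29.5% of all 498 protein-coding genes listed for this fusion). The median was 1 site per gene among the members and 1 among all protein-coding genes, and the range was 1 to 3 among the members.

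ZNF789, a KRAB zinc finger gene, had the highest count of the members on this list, with 3 sites, all in the 3′ UTR of ENST00000483089.1. Its other listed transcript, ENST00000331410.5, had a count of 0 in every region. It was 1 of 7 protein-coding genes with at least 3 sites in the 3′ UTR with this fusion. The KRAB gene ZNF790 had 2 sites in the 3′ UTR of ENST00000356725.4. ZNF587B, also of the KRAB class, had 2 sites in the 3′ UTR of ENST00000442832.4 and 1 count in the stop-codon region, which the tables give apart from the transcript total. Whether that stop-codon count is one of the 3′ UTR sites cannot be told without positions. Thus 3 of the 5 members with several sites carried them in the 3′ UTR.

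The other pair of genes with several sites had them in introns. ZNF146, a small protein built almost wholly of zinc fingers, had 2 intronic sites in ENST00000456324.1. ZNF346, which binds double-stranded RNA through its fingers, had 2 intronic sites in ENST00000506693.1.

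Single 3′ UTR sites were present in 5 genes: the KRAB genes ZNF101, ZNF431, ZNF440 and ZNF611, and ZNF639. ZNF101 and ZNF431 each had a second listed transcript with a count of 0. Single intronic sites were present in 7 genes. These were ZFP64, a transcription factor, the SCAN-domain gene ZNF500, the KRAB genes ZNF195, ZNF573 and ZNF655, and ZNF286B and ZNF839. ZNF398, a KRAB gene, was the only member on this list with a 5′ UTR site, in ENST00000426851.2.

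With ADAR-SUGP1, introns held 22 of the 36 zinc finger sites, the 3′ UTR 9, coding sequence 4 and the 5′ UTR 1. Of the 25 genes, 18 had a single site and 7 had several (28.0%, against 19.9% of all 995 protein-coding genes on this list). The median was 1 site per gene for members and for all protein-coding genes alike. Members ranged from 1 to 4 sites.

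ZNF346 had the highest summed count, 4 intronic sites, with 2 in ENST00000506693.1 and 2 in ENST00000512315.1. The count of 4 assumes that no site was entered under both transcripts, and it would be 2, below ZNF717 and ZNF397 with 3 each, if the entries shared their sites. The KRAB gene ZNF717 had 3 intronic sites in ENST00000491507.1. ZNF397, a SCAN-domain protein, had 3 in ENST00000589420.1. The KRAB genes ZNF317 and ZNF302 had 2 intronic sites each, in ENST00000247956.6 and ENST00000512455.2. Introns thus held the sites of 5 of the 7 members with several sites on this list.

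The other pair had exonic sites. ZNF527, of the KRAB class, had 2 sites in the 3′ UTR of ENST00000436120.2. ZNF429, a KRAB gene that lies in the same run of zinc finger genes as ZNF431, had 2 sites in the coding sequence of ENST00000358491.4 and 1 count in the stop-codon region. It was the only member with more than 1 coding site on either list. Single coding sites were counted in ZNF594 (ENST00000399604.4) and in the SCAN-domain gene ZNF213 (ENST00000574902.1), and ZNF200 had a single 5′ UTR site in ENST00000414144.2.

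Single 3′ UTR sites were found in 7 members with ADAR-SUGP1, namely the KRAB genes ZNF431, ZNF440, ZNF557, ZNF641, ZNF776 and ZNF850, and ZNF771. Single intronic sites were found in 8. Among these, ZNF598 is a ubiquitin ligase that senses collided ribosomes, ZNF335 is a transcriptional regulator with a role in neural progenitors, and ZNF131 carries a BTB domain. The remaining 5 were the KRAB genes ZNF337, ZNF519, ZNF589, ZNF655 and ZNF75A. Among the 4 regions of the transcript body (5′ UTR, coding, 3′ UTR and intron), every member with several sites on either list had them in a single region; the stop-codon counts of ZNF587B and ZNF429 stand apart from these. This held for 5 of 5 such genes on the GPATCH8-ADAR list and 7 of 7 on the other, while 8 of 142 (5.63%) and 30 of 191 (15.7%) of the other protein-coding genes with at least 2 sites had them in several regions. At shares as low as 5.63% and 15.7%, few or none would be looked for among 5 and 7 genes. The members are thus not shown to differ, and the shares were not tested.

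**Figure D1:**
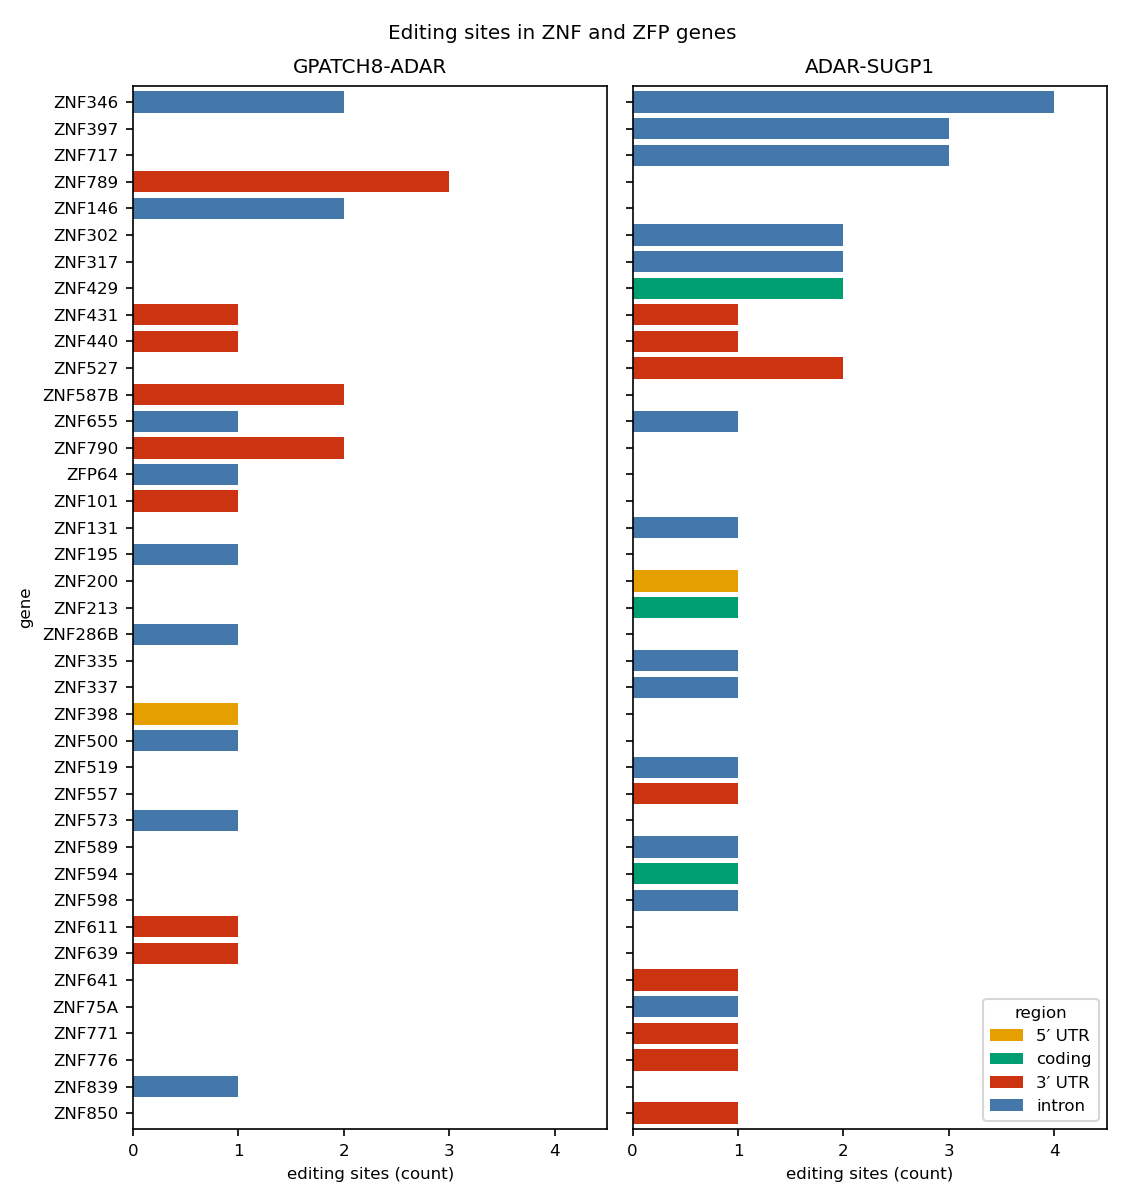
Editing sites per gene (horizontal axis, count) in each of the 39 ZNF and ZFP genes, with GPATCH8-ADAR on the left and ADAR-SUGP1 on the right, coloured by region of the transcript; a gene without a bar was not on that list. With counts summed over transcripts, ZNF346 has the longest bar with ADAR-SUGP1 (4 intronic sites, or 2 if its transcripts share them) and ZNF789 with GPATCH8-ADAR (3 sites in the 3′ UTR), and no bar holds more than 1 colour.

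The region of the zinc finger sites was compared with that of other protein-coding genes on the same list. The rule picks members by symbol and uses no region, but the group was proposed with earlier results of these data known. With GPATCH8-ADAR, the 3′ UTR held 12 of 24 member sites (50.0%, 95% exact binomial interval 29.1 to 70.9) and 129 of 708 sites of other protein-coding genes (18.2%, 15.4 to 21.3). The share was higher in members by 31.8 percentage points (95% Newcombe interval 13.0 to 50.5; Fisher's exact test over sites, two-sided, adjusted p = 0.00273 over 4 regions and both fusions). Introns held 11 of 24 member sites (45.8%, 25.6 to 67.2) and 554 of 708 other sites (78.2%, 75.0 to 81.2), a difference of -32.4 points (interval -50.6 to -13.1; same exact test, adjusted p = 0.00273). The zinc finger transcripts listed with GPATCH8-ADAR thus had more of their sites in the 3′ UTR and fewer in introns, when each site was counted. Nearly all sites lay in one or the other, so the 3′ UTR excess and the intronic deficit are largely a single contrast. Their adjusted p-values are equal through the adjustment (unadjusted p = 0.000546 and 0.000682 by Fisher's exact test).

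Sites of 1 gene are not independent, and the call did not hold in 3 alternatives. With genes as the unit, 8 of 18 members had a 3′ UTR site (44.4%, against 20.7% of all 487 protein-coding genes with a site in the transcript body) and 93 of 469 other genes did (19.8%). The difference of 24.6 points (interval 4.36 to 46.7) had an adjusted p of 0.0789 by Fisher's exact test. Without ZNF789 the difference over sites was also 24.6 points, with an adjusted p of 0.0527 by the same exact test, and among genes with 1 listed transcript the excess was 20.3 points, with an adjusted p of 0.12 by Fisher's exact test. Of the 18 members, 9 had an intronic site (50.0%, against 76.0% of all protein-coding genes with a site in the body). The intronic difference lost its call in the same settings, at -27.0, -25.9 and -23.9 points with the same adjusted p as the 3′ UTR in each. The direction was the same in all of them.

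With ADAR-SUGP1, no region differed between members and other genes past the threshold. The 3′ UTR held 9 of 36 member sites (25.0%, 12.1 to 42.2) and 202 of 1216 other sites (16.6%, 14.6 to 18.8). Members were higher by 8.39 points (interval -3.07 to 24.6), which did not pass Fisher's exact test (adjusted p = 0.478). By genes, 8 of 25 members had a 3′ UTR site (32.0%, against 18.4% of all 960 protein-coding genes with a site in the body). An intronic site was present in 13 of 25 (52.0%, against 65.4%). Introns held 61.1% of member sites (43.5 to 76.9) and 66.8% of other sites (64.0 to 69.4), a difference of -5.67 points (interval -22.1 to 8.69; Fisher's exact test, adjusted p = 0.764). Coding sequence held 11.1% of member sites and 11.3% of other sites (difference -0.155 points, interval -7.12 to 14.1; Fisher's exact test, adjusted p = 1), and the sign of this difference turned in 5 alternatives.

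**Figure D2:**
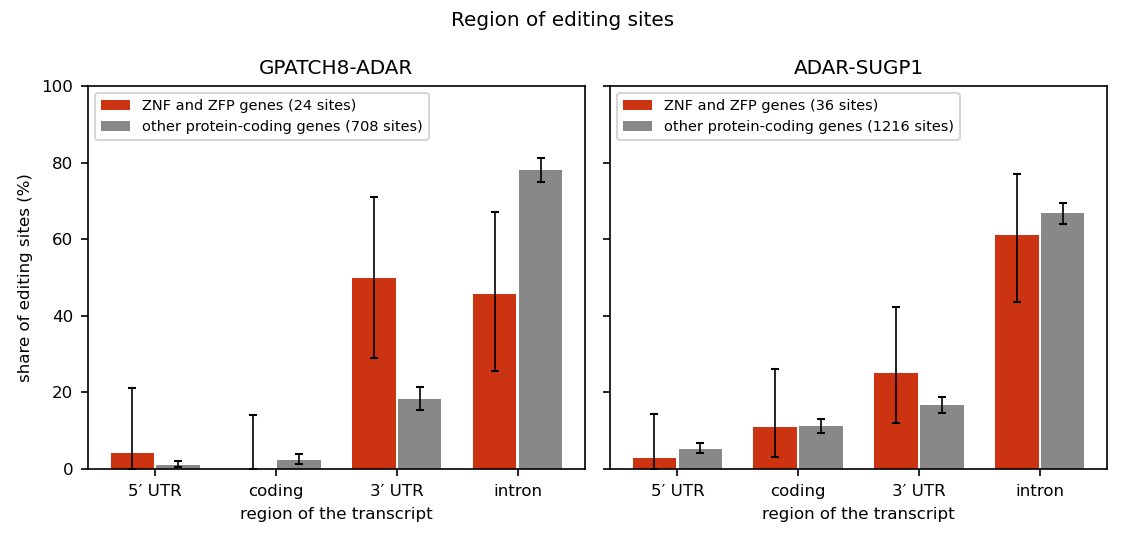
Share of editing sites in each region (vertical axis, %) for ZNF and ZFP genes and for other protein-coding genes, with GPATCH8-ADAR on the left (24 and 708 sites) and ADAR-SUGP1 on the right (36 and 1216 sites); bars are shares and lines are 95% exact binomial intervals over sites. With GPATCH8-ADAR the member bar stands at 50.0% in the 3′ UTR against 18.2% for other genes, while with ADAR-SUGP1 the intervals of members and other genes overlap in all 4 regions.

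Whether the excess of 3′ UTR sites differed between the fusions was tested with Zelen's exact test of equal odds ratios, chosen after the values were seen. Over sites the p-value was 0.0989 for the 3′ UTR (adjusted 0.198 over 4 regions) and 0.0312 for introns (adjusted 0.125), so neither passed. With genes as the unit Zelen's exact test gave p-values of 0.744 and 0.351. The call with GPATCH8-ADAR and its absence with ADAR-SUGP1 are therefore not shown to differ.

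The members' own sites were also compared directly between the fusions. The 4 genes on both lists entered both sides, so the sides were not independent, and each fusion had its own run. From GPATCH8-ADAR to ADAR-SUGP1 the 3′ UTR share went from 50.0% to 25.0% (-25.0 points, Newcombe interval -46.7 to -0.440), which missed the threshold of Fisher's exact test over sites (p = 0.0578, adjusted p = 0.231 over 4 regions). The Newcombe interval is an approximation without adjustment for the 4 regions and ends just below 0. Without members on both lists the 3′ UTR difference was -28.5 points (Fisher's exact test over sites, adjusted p = 0.261). The intronic share went from 45.8% to 61.1% (15.3 points, interval -9.79 to 38.1; Fisher's exact test, adjusted p = 0.394), and the coding share from 0 of 24 to 4 of 36 (11.1 points, interval -4.23 to 25.3; Fisher's exact test, adjusted p = 0.285). By genes the shares with a 3′ UTR site were 44.4% and 32.0% (-12.4 points, interval -38.8 to 15.5; Fisher's exact test, adjusted p = 1). Over all protein-coding sites the coding share was 2.32% with GPATCH8-ADAR and 11.3% with ADAR-SUGP1. The members' coding share thus went the same way as that of the lists. The 3′ UTR share over all protein-coding sites was 19.3% and 16.9%, and the intronic share 77.2% and 66.6%. That intronic share was lower with ADAR-SUGP1, while the members' was higher.

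The KRAB class carried nearly all of the members' 3′ UTR sites, and also most of their sites over all regions. This grouping was made from general knowledge of the proteins after the values were seen, so it is given as a description with no test. It places 24 of the 39 genes in the KRAB class, 3 in the SCAN class (ZNF213 and ZNF500 also have a KRAB domain), 7 among proteins with another known role, and leaves 5 ungrouped. With GPATCH8-ADAR, 11 KRAB genes had 15 sites, 11 of them in the 3′ UTR (73.3%, against 19.3% of all protein-coding sites) and 3 in introns. By genes, 7 of these 11 had a 3′ UTR site. The other 7 members had 9 sites, 1 in the 3′ UTR (11.1%, in ZNF639) and 8 in introns. With ADAR-SUGP1, 16 KRAB genes had 22 sites, 8 in the 3′ UTR (36.4%, against 16.9% of all protein-coding sites) and 12 in introns. Of these 16 genes, 7 had a 3′ UTR site. The other 9 members had 14 sites, 1 in the 3′ UTR (7.14%, in ZNF771) and 10 in introns. The 7 genes with another known role, among them ZNF346, ZNF598, ZNF131 and ZNF335, had 5 of their 6 GPATCH8-ADAR sites and all 7 of their ADAR-SUGP1 sites in introns. Counting ZNF500 (1 intronic site with GPATCH8-ADAR) and ZNF213 (1 coding site with ADAR-SUGP1) as KRAB genes would lower that class's 3′ UTR shares.

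**Figure D3:**
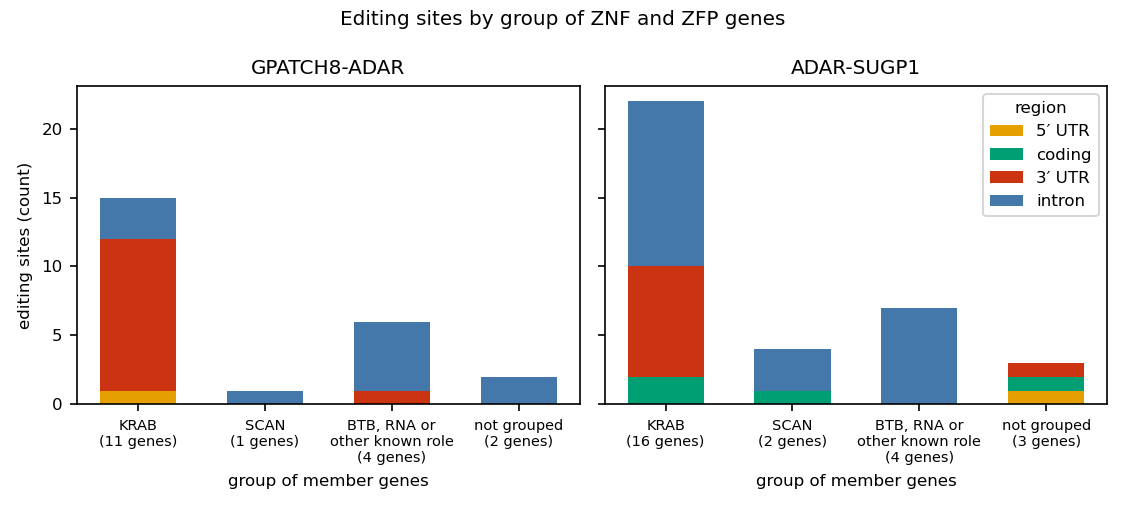
Editing sites (vertical axis, count) in 4 groups of ZNF and ZFP genes, with GPATCH8-ADAR on the left and ADAR-SUGP1 on the right, coloured by region; the number of genes stands under each bar. The 3′ UTR colour fills 11 of the 15 sites of the KRAB group with GPATCH8-ADAR and 8 of its 22 with ADAR-SUGP1, and appears once on each side outside that group.

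The 4 genes on both lists were ZNF346, ZNF431, ZNF440 and ZNF655. They make up 22.2% of the members listed for GPATCH8-ADAR, 16.0% of those listed for ADAR-SUGP1 and 10.3% of those on either, against 10.8% of all 1348 protein-coding genes on either list. In each of the 4, a transcript with sites was listed for both fusions with the same count in the same region. How often this holds among all 145 protein-coding genes on both lists was not counted, so it is not shown to be particular to members. The gene totals were not all alike. With ADAR-SUGP1 only, ZNF346 also had 2 intronic sites under ENST00000512315.1, and ZNF655 had 1 stop-codon count under ENST00000412636.1. ZNF346 had 2 intronic sites in ENST00000506693.1 with each fusion. ZNF655, a KRAB gene also known as a partner of VAV1, had 1 intronic site in ENST00000252713.4 with each. ZNF440 had 1 site in the 3′ UTR of ENST00000304060.5 with each, and ZNF431 had 1 in the 3′ UTR of ENST00000311048.7 with each. Whether these are the same adenosines cannot be told from the counts. Both lists also held ENST00000594425.1 of ZNF431 with a count of 0 throughout, so that 5 member transcripts were shared, 23.8% of those with GPATCH8-ADAR and 16.1% of those with ADAR-SUGP1. Over all protein-coding transcripts the shared number was 139 (25.6% and 11.4%).

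Among protein-coding genes on 1 list only, members numbered 14 of the 353 on the GPATCH8-ADAR list (3.97%, exact binomial bounds 2.18 and 6.56) and 21 of the 850 on the ADAR-SUGP1 list (2.47%, bounds 1.54 and 3.75). The difference of -1.50 points (Newcombe interval -4.21 to 0.543) did not pass Fisher's exact test (two-sided, p = 0.187).

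Several transcripts were listed for 3 members with GPATCH8-ADAR (16.7%, against 8.63% of all protein-coding genes), ZNF101, ZNF431 and ZNF789, each with 1 transcript that carried the sites and 1 at 0. With ADAR-SUGP1 there were 6 (24.0%, against 19.6%): ZNF200, ZNF346, ZNF431, ZNF655, ZNF771 and ZNF850. Only in ZNF346 did both transcripts carry sites in the body. In ZNF655 the second transcript, ENST00000412636.1, had 1 count in the stop-codon region alone. Entries with a count of 0 in every region were 3 of 21 with GPATCH8-ADAR (14.3%, against 6.25% of all protein-coding entries) and 4 of 31 with ADAR-SUGP1 (12.9%, against 10.5%). A stop-codon count was present in 1 of 21 entries (ZNF587B; 3.68% over all protein-coding entries) and in 2 of 31 (ZNF429 and ZNF655; 12.0% over all), with p = 1 between the fusions by Fisher's exact test (two-sided). No member had a promoter count (0 of 21 entries, exact binomial upper limit 16.1%, and 0 of 31, upper limit 11.2%). Over all protein-coding entries the shares with a promoter count were 0.551% with GPATCH8-ADAR and 0.493% with ADAR-SUGP1. Members are thus not shown to differ in this.

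The members were not all from the large chromosomal clusters of the family. In a RefSeq gene table, 38 of the 39 members are protein-coding, and ZNF286B is a transcribed pseudogene. They are 38 of the table's 527 protein-coding genes with such symbols (7.21%, against 6.01% for 1206 of all 20050 protein-coding genes of the table matched by current symbol). The genes that could have been listed, given their expression, are not known, so no test was made of these shares. The table matched 1206 of the 1348 listed protein-coding genes but 38 of the 39 members. The 6.01% may thus be too low beside the 7.21%. A direct neighbour with a ZNF or ZFP symbol was present for 17 of the 38 (44.7%, against 64.7% of the 527), and 14 of the 38 (36.8%, against 42.7%) lay in an unbroken run of at least 5 such genes. Of the members with GPATCH8-ADAR, 9 of 17 were in such a run (52.9%), and of those with ADAR-SUGP1, 7 of 25 (28.0%).

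The longest runs with listed members had 27, 24 and 24 genes. The run of 27 held ZNF429 and ZNF431, which differed in the region of their sites, coding for ZNF429 and 3′ UTR for ZNF431. A run of 24 held ZNF146, ZNF527, ZNF790 and ZNF850. There the direct neighbours ZNF790 and ZNF850 both had 3′ UTR sites, ZNF790 with GPATCH8-ADAR and ZNF850 with ADAR-SUGP1. ZNF527 had 3′ UTR sites with ADAR-SUGP1, while ZNF146 had intronic sites with GPATCH8-ADAR. ZNF587B and ZNF776, in a run of 12, had 3′ UTR sites with GPATCH8-ADAR and ADAR-SUGP1 respectively. The second run of 24 held ZNF440. ZNF346 has no zinc finger gene beside it.

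Other zinc finger families, fixed as a list of symbols such as ZBTB, ZSCAN, ZMYM and PHF genes, had 9 genes on the GPATCH8-ADAR list. Introns held 11 of their 12 sites (91.7%, against 77.2% of all protein-coding sites with this fusion) and the 3′ UTR 0 of 12 (exact binomial upper limit 26.5%, against 19.3% of all protein-coding sites). That limit takes in the share of the whole list, so these families were not distinguishable from it. ZMYM1, a zinc finger gene of the MYM type, had 3 intronic sites and the palmitoyltransferase ZDHHC8 had 2. With ADAR-SUGP1 there were 14 genes, with 8 of 15 sites in introns (53.3%, interval 26.6 to 78.7, against 66.6% of all protein-coding sites) and 5 in the 3′ UTR (33.3%, interval 11.8 to 61.6, against 16.9%). Both intervals take in the share of the whole list. The 3′ UTR sites were 1 each in PHF17, PHF20, ZBTB37, ZBTB42 and ZFAND2B. ZBTB48, a telomere-binding factor, and ZMYND19 were on both lists.

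Of the proteins through which KRAB domains act, or which work with them in silencing, 4 of 29 genes looked up were listed with GPATCH8-ADAR (13.8%, against 2.21% of all protein-coding genes of the gene table) and 10 of 29 with ADAR-SUGP1 (34.5%, against 4.44%), and 3 were on both lists. Expression, which sets what can be listed, is not known for these genes, so the shares were not tested. The 2.21% and 4.44% count only listed genes matched by current symbol, while FAM208A was counted among the partners under its older symbol. Both may thus be too low beside the 13.8% and 34.5%. TRIM28 was on neither list. SETDB1 had 1 intronic site with GPATCH8-ADAR, and 1 site in the 3′ UTR and 1 stop-codon count with ADAR-SUGP1. FAM208A (current symbol TASOR), a subunit of the HUSH silencing complex, had 1 intronic site with each. DNMT1, the maintenance DNA methyltransferase, had 5 and 1 intronic sites. With ADAR-SUGP1, the HP1 gene CBX3 and the histone deacetylase HDAC1 had 2 intronic sites each.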

How the data were processed

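TRIBE-seq libraries came from total RNA of sorted 293T cells after depletion of ribosomal RNA, per the labels' protocols. The submitters' processing notes name Trimmomatic, STAR and hg19; how sites were called, with which annotation, and whether strand was used is not given in the sources used here, so sites of overlapping antisense genes cannot be told apart. What the authors deposited are counts of editing sites (not reads) per transcript and region, per the file headers, with endogenous and control-fusion editing removed, per the series' design text. The extent of the stop-codon and promoter regions is not stated.

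Counts were summed over the listed transcripts of a gene, so a site entered under several transcripts would count more than once. Shares have exact binomial (Clopper-Pearson) 95% intervals and differences Newcombe intervals. Fisher's exact tests (scipy 1.17.1, two-sided, Benjamini-Hochberg adjusted, threshold 0.05) were tested on simulated data. The simulated sites were independent, so this does not cover sites that share a gene. Intervals and p-values reflect counts of sites or genes, not the spread between libraries, which merged counts do not hold. All members are named with the region of their sites. Those with several sites or a place on both lists are also given with the transcripts that carried the sites. Names and neighbours came from a RefSeq table (GRCh38.p14). Members and lists were chosen with earlier results of these data known. Planned protein sequences were not used here.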

Additional observations from a re-analysis of the deposited data

How the results depend on the processing

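Comparisons of members with other protein-coding genes and between fusions were recomputed with genes as the unit, without the member with the most sites (ZNF789 and ZNF346), without members on both lists, among genes with 1 listed transcript, and with every symbol that starts with ZNF or ZFP. Added after seeing the data were the top transcript per gene and removal of other zinc finger families. Of 83 recomputed values, 71 kept their direction and side of the threshold. The 3′ UTR excess with GPATCH8-ADAR (31.8 points) lost its call with genes as the unit (24.6) and without ZNF789 (24.6). It also lost it among genes with 1 listed transcript (20.3). The intronic deficit (-32.4) did likewise (-27.0, -25.9 and -23.9). Fewer sites or genes entered each of these tests, and the differences were also smaller. Without members on both lists fewer sites entered too, but both calls held, at 34.4 and -36.1 points. Whether the numbers of sites account for the lost calls was not tested. The coding difference with ADAR-SUGP1 (-0.155) turned to 1.23 without ZNF346, 2.53 without members on both lists, 5.87 among genes with 1 listed transcript, 2.32 with the wider symbol rule, which adds ZFPM1, and 0.757 with the top transcript per gene. The members' share of the lists turned from -1.50 to 0.203 points when a gene counted as listed only with at least 2 sites. A gene on both lists could then count as being on 1 list only. The cause of this change of sign was not tested. No paired analysis was possible because the deposited counts merge both replicates, and for the same reason no replicate could be left out. Small numbers of sites limit all shares.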

Other observations

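Outside the protein-coding rule, ZNF833P, listed as a long intergenic non-coding RNA, had 2 intronic sites in ENST00000344893.3 with ADAR-SUGP1. The pseudogene ZNF37BP was listed with GPATCH8-ADAR with a count of 0 in every region. ZFPM1, a protein-coding gene whose symbol falls outside the rule and which encodes a GATA cofactor, had 1 coding site with ADAR-SUGP1.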
